A study of Mus musculus with 2 samples.

Results

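The genes described here encode the proteins of the cytosolic ribosome and of the mitochondrial ribosome, as read from RNA of 4T1 tumours. They were chosen by symbol, and 163 of 34259 genes on the count scale matched. Of these, 85 encode cytosolic proteins (51 named for the large and 34 for the small subunit) and 78 encode mitochondrial proteins (49 large and 29 small). Rows were matched by name only, but the members and lists were chosen with earlier results of these data known. The measured genes, meaning those with a mean of at least 10 CPM (counts scaled to a common library total) over both libraries, were 158 of the 163, namely 81 cytosolic and 77 mitochondrial.

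4T1 is a mouse mammary carcinoma cell line, and its tumours also hold host stroma and leukocytes. Bulk RNA was sequenced from 1 control tumour sample and 1 tumour sample taken after 3 injections of what the labels call a degrader, autophagy-related by the series title. The labels do not name the degrader, its target, the dose, what the control received, the mouse strain or the age of the mice. The treated sample carries batch 1 and the control sample batch 2, so treatment, batch and tumour cannot be told apart. With 1 library per group there is no replicate check and no test. Every ratio below compares 2 libraries, and each interval covers counting error only, at 95%. In bulk RNA, fewer cells of a type and less RNA per cell cannot be told apart.

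The ribosome makes all proteins of the cell. Its cytosolic form is built in the nucleolus and cytoplasm from ribosomal RNA and proteins, and growing tumour cells spend much of their messenger RNA on these proteins. The mitochondrial ribosome descends from a bacterial one. Its proteins are encoded in the nucleus and imported, and it translates the few messages of the mitochondrial genome, all of them for the respiratory chain.

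The deposited counts summed to 3824323 (treated) and 2252214 (control), so that 1 count was worth 0.259 and 0.449 CPM. The 8 epithelial markers fixed for the 4T1 line were all detected, with summed levels of 5340 CPM (treated) and 4800 CPM (control), 6 of them higher in the treated library. Markers of other cells differed between the libraries. All 9 keratinocyte markers with a row, of 10 listed, were higher in the treated library, with sums of 2529 against 161 CPM, and Ivl had no count in the control library. All 7 neutrophil markers were higher (2413 against 834 CPM), as were the 5 erythroid markers (558 against 172 CPM). The 6 endothelial markers were lower (145 against 296 CPM). The sums for the other lists, treated first, were 983 and 747 CPM for 7 macrophage, 1596 and 1877 for 6 fibroblast, 211 and 315 for 5 plasma cell, 59.0 and 25.1 for 6 skeletal muscle and 31.6 and 22.9 for 6 T cell markers. The plasma cell sum is mostly Xbp1, which other cells express too (208 against 164 CPM). The antibody genes Igkc (1.29 against 56.5 CPM), Ighg1 (1.03 against 46.7 CPM) and Jchain (1.55 against 45.8 CPM) were 43.7-fold, 45.1-fold and 29.5-fold lower in the treated library, where Mzb1 had no count. Of the T cell markers, Cd3e and Cd4 had none in the control library. The part these cells had in the ribosomal protein values was not tested.

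Cytosolic ribosomal protein genes were modestly lower and mitochondrial ones modestly higher in the treated library. Cytosolic genes took 656905 counts, or 17.2% (17.1% to 17.2%) of the treated library, against 446111 counts, or 19.8% (19.8% to 19.9%) of the control library. Mitochondrial genes took 26975 counts, or 0.705% (0.697% to 0.714%), and 13321 counts, or 0.591% (0.581% to 0.602%). The cytosolic share was thus 1.15 times larger in the control library, and the mitochondrial share 1.19 times larger in the treated library. For each mitochondrial count the treated library held 24.4 cytosolic counts (24.1 to 24.7), against 33.5 (32.9 to 34.1) for the control.

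The same contrast held gene by gene. A log2 ratio here is that of treated over control CPM after scaling by the trimmed mean of M values and adding 1 to each level. The median log2 ratio was -0.19 over the 81 measured cytosolic genes and 0.29 over the 77 measured mitochondrial genes, beside 0.03 over all 8865 measured genes. The 2 medians differ by 0.49, or 1.40-fold. Of the cytosolic genes 65 had a log2 ratio below 0 and 16 above, whereas 47.5% of all measured genes were below 0. Of the mitochondrial genes 64 were above 0 and 13 below, whereas 52.5% of all measured genes were above 0. The differences were small: no measured member reached 2-fold, a size reached by 6.73% of all measured genes, with 4.23% on the higher and 2.50% on the lower side.

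**Figure D1:**
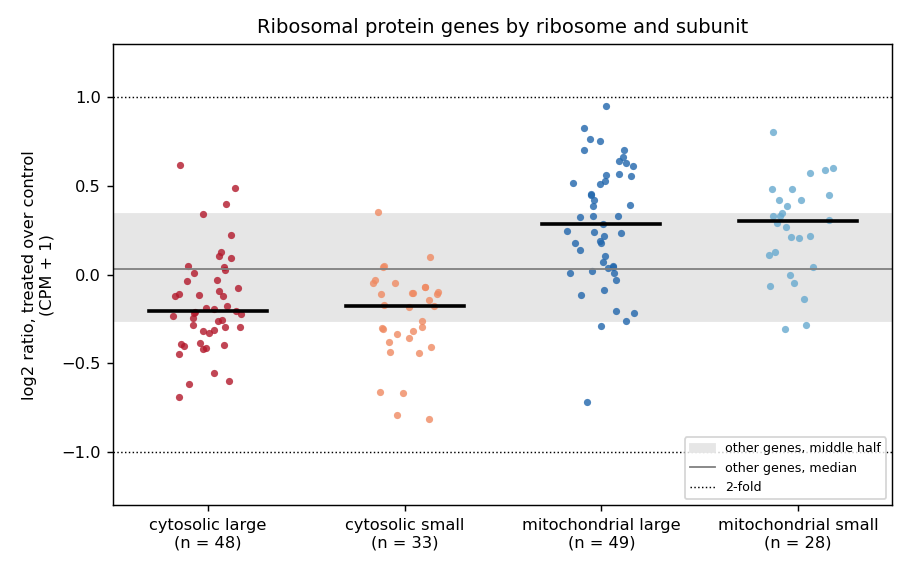
Log2 ratio of treated over control CPM (vertical axis) for each measured gene of the 4 subunit groups, 1 point per gene with the group median as a black bar; the grey band and line are the interquartile range and the median of the other measured genes, and dotted lines mark 2-fold. The cytosolic groups sit mostly below 0 with medians of -0.21 and -0.18, the mitochondrial groups mostly above 0 with medians of 0.28 and 0.30, and no point passes a dotted line.

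At a threshold of 1.5-fold, 7 cytosolic genes were lower and 1 was higher, while 13 mitochondrial genes were higher and 1 was lower. Beyond this threshold were 12.8% of all measured genes upwards and 9.02% downwards. The shares of members on the side of their group median, 7 of 81 cytosolic genes lower and 13 of 77 mitochondrial genes higher, are therefore not far from the background. On the opposite side the shares were well below it. There 1 of 81 cytosolic genes was higher, beside 12.8%, and 1 of 77 mitochondrial genes was lower, beside 9.02%. The members differed from the background in the side of 0 on which they lay more than in the size of single ratios. Counting intervals lay wholly below 1 for 61 of 81 cytosolic genes, against 18.9% of all measured genes, and wholly above 1 for 33 of 77 mitochondrial genes, against 22.0%. The cytosolic genes are deeply counted and have narrow intervals, with a median of 1.08-fold between the bounds, against 1.58-fold for the mitochondrial genes. These 2 numbers of genes therefore cannot be compared with each other. The shares of all measured genes are not matched to them in depth either, since the median level was 36.1 CPM over all measured genes. It was 1714 CPM over cytosolic and 60.8 CPM over mitochondrial members.

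**Figure D2:**
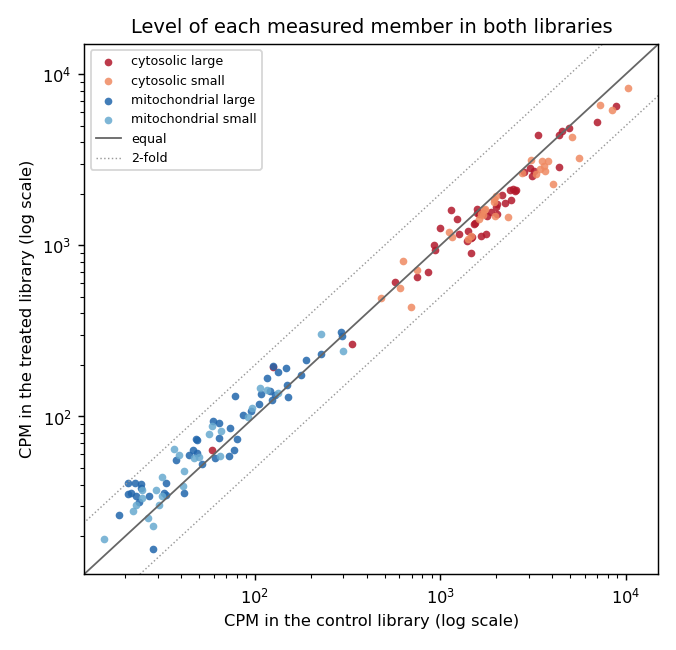
CPM of each measured member in the control (horizontal) and the treated library (vertical), both on log scales, coloured by ribosome and subunit; the solid line marks equal levels and dotted lines 2-fold. The cytosolic genes, between 61.1 and 9330 CPM on average, lie mostly under the line of equality, and the mitochondrial genes, between 17.2 and 302 CPM, mostly above it.

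Large and small subunits differed little. In the cytosolic ribosome the median log2 ratio was -0.21 over 48 large-subunit genes and -0.18 over 33 small-subunit genes. Their means were ordered the other way, -0.16 and -0.23, so the data give no stable order of the subunits. By summed counts the large subunit had 1.18 treated counts (1.18 to 1.19) and 1.11 control counts (1.10 to 1.12) for each small-subunit count. Below 0 were 36 of the 48 large-subunit and 29 of the 33 small-subunit genes. In the mitochondrial ribosome the medians were 0.28 over 49 large-subunit and 0.30 over 28 small-subunit genes, and the means, 0.28 and 0.26, were again ordered the other way. Its large subunit had 2.21 treated counts (2.16 to 2.27) and 2.20 control counts (2.12 to 2.28) per small-subunit count, with overlapping intervals.

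Among the cytosolic small-subunit genes, the lowest ratios belonged to Rps12, Rps7 and Rps15. Rps12, a protein of the head of the small subunit, had 8871 treated and 9005 control counts, or 2295 and 4041 CPM. Its level was 1.76-fold lower in the treated library (1.71 to 1.81), the lowest ratio of all 81 cytosolic genes. Rps7, which takes part in small-subunit assembly and can bind MDM2, the ubiquitin ligase of p53, had 12436 and 12426 counts. These correspond to 3218 and 5576 CPM, 1.73-fold lower (1.69 to 1.78). Rps15, whose tail reaches towards the decoding site, had 1460 and 2323 CPM and was 1.59-fold lower (1.53 to 1.65).

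The most abundant small-subunit genes were also lower, by less. Rps27a is made as a fusion with ubiquitin and had the most counts of any member, 32261 and 22982, or 8347 and 10313 CPM. It was 1.24-fold lower (1.21 to 1.26). Rps27 had 25492 and 16199 counts and was 1.10-fold lower (1.08 to 1.12). Rps14, a protein of the platform of the small subunit, was 1.35-fold lower (1.33 to 1.38). Rpsa, also known as the laminin receptor precursor, was 1.20-fold lower (1.17 to 1.23).

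A few small-subunit genes lay on the other side or near equality. Rps2, which lies near the entry of the messenger RNA channel, had 805 treated and 631 control CPM, a ratio of 1.28 (1.20 to 1.36). Rps6, the substrate of the S6 kinases downstream of mTORC1, had 1945 and 1989 CPM, and its ratio of 0.978 (0.942 to 1.02) includes 1. Fau, made as a fusion with a ubiquitin-like protein, had a ratio of 1.03 (1.00 to 1.06).

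Among the cytosolic large-subunit genes, Rpl36a, Rpl17 and Rpl39 had the lowest ratios. Rpl36a, which lies near the exit site for transfer RNA, had 3491 and 3251 counts, or 903 and 1459 CPM, and was 1.62-fold lower (1.54 to 1.69). Rpl17, which lines the tunnel through which the new protein leaves, had 2866 and 4387 CPM and was 1.53-fold lower (1.49 to 1.57). Rpl39, another tunnel protein, had 1165 and 1766 CPM and was 1.52-fold lower (1.45 to 1.58). All 9 members of the list of tunnel proteins had log2 ratios below 0, beside 47.5% of all measured genes. Their median was -0.22, and 2 were at least 1.5-fold lower, beside 9.02% of all measured genes. That median is close to the one of all measured cytosolic genes.

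The highest ratios of the large subunit were those of Rpl29, Rpl14 and Rplp0. Rpl29 had 748 and 280 counts, or 194 and 126 CPM, a ratio of 1.54 (1.34 to 1.77), and was the 1 measured cytosolic gene at least 1.5-fold higher. Rpl14 had 1602 and 1144 CPM and a ratio of 1.40 (1.34 to 1.47). Rplp0, the base of the stalk that recruits the translation factors, had 17093 and 7479 counts, or 4423 and 3356 CPM, a ratio of 1.32 (1.28 to 1.35).

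The stalk genes therefore did not share a side. Rplp1 and Rplp2, the acidic proteins that Rplp0 carries, had ratios on the other side of 1. Rplp1 had 5220 and 6987 CPM, 1.34-fold lower (1.31 to 1.37), and Rplp2 had 1842 and 2407 CPM, 1.31-fold lower (1.26 to 1.35). Rpl41, the smallest ribosomal protein and the most abundant large-subunit message by counts, had 25177 and 19806 counts and was 1.36-fold lower (1.34 to 1.39).

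Rpl5 and Rpl11, which with the small ribosomal RNA form the particle that can restrain MDM2, were both slightly lower. Rpl11 was 1.23-fold lower (1.19 to 1.27), with 2067 and 2540 CPM. Rpl5 was 1.13-fold lower (1.09 to 1.17), with 2100 and 2374 CPM. Of 9 ribosomal proteins known to bind MDM2, 8 had log2 ratios below 0, beside 47.5% of all measured genes, with a median of -0.25. Of 19 ribosomal protein genes mutated in the human disease Diamond-Blackfan anaemia, 17 were below 0, with a median of -0.18, again near the median of -0.19 over all cytosolic genes.

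A cytosolic subunit whose symbol does not follow the pattern lay on the same side. Rack1, a signalling scaffold on the small subunit, had 2380 and 2709 CPM and was 1.14-fold lower (1.10 to 1.18).

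Several core proteins have paralogs, genes of related sequence. For 3 of 8 pairs the counting intervals of the paralog's share did not overlap between the libraries, which is no test of the difference. These 3 paralogs had the most counts, and deeper counting narrows the intervals. Over all measured genes, counting intervals of the ratio lay wholly above 1 for 22.0% and wholly below 1 for 18.9%. Rpl22l1 had 4090 treated and 3099 control counts beside 4367 and 3704 of Rpl22, an RNA-binding protein of the large subunit. The paralog held 48.4% (47.3% to 49.4%) of the pair's treated and 45.6% (44.4% to 46.7%) of its control counts. Both genes were lower in the treated library, Rpl22l1 by 1.31-fold (1.25 to 1.38). Rpl36al held 27.5% (26.3% to 28.8%) of the treated, against 21.6% (20.4% to 22.9%) of the control, counts it shares with Rpl36a, and was itself 1.18-fold lower (1.08 to 1.28). Rps27l, a p53 target, held 6.95% (6.65% to 7.26%) and 6.14% (5.79% to 6.51%) of the counts it shares with Rps27. Its own levels, 493 and 476 CPM, gave a ratio of 1.04 (0.960 to 1.12).

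The other paralogs were sparse. Rpl7l1, related to Rpl7, had 245 and 131 counts, a ratio of 1.08 (0.869 to 1.34). It held 2.44% (2.15% to 2.76%) of the treated and 1.84% (1.54% to 2.18%) of the control counts it shares with Rpl7. These intervals overlap only narrowly. Rps4l had 22 and 11 counts and Rpl39l, best known from testis, had 19 and 7, with ratios of 1.15 (0.536 to 2.63) and 1.57 (0.630 to 4.41) that include 1. Rpl3l, a paralog of striated muscle, had 5 treated counts and 1 control count. Rpl10l, another testis paralog, had no count in either, which allows up to 0.0617% and 0.136% of the counts of its pair with Rpl10. How reads were divided between near copies was not given in the sources used here, and shares of close pairs are therefore uncertain. This holds also for 10 rows named as retrogenes or pseudogenes of cytosolic genes. These rows had 14479 treated and 9088 control counts, equal to 2.20% and 2.04% of the cytosolic counts, and 9558 and 5933 of them fell on Rps27rt, a copy of Rps27.

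**Figure D3:**
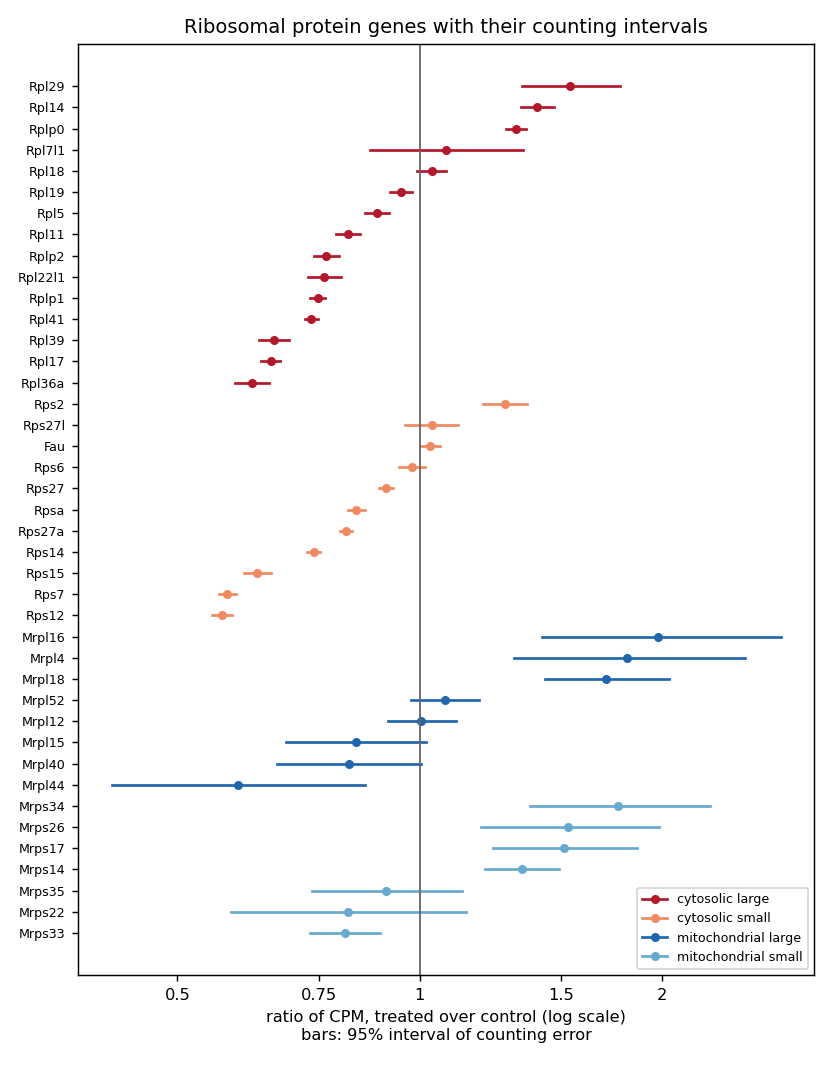
Ratio of treated over control CPM (horizontal, log scale) for measured members, 1 row per gene, with bars for the 95% interval of counting error and colours for ribosome and subunit. Rps12 and Rps7 stand lowest among the cytosolic genes at 0.568 and 0.577, Mrpl16 stands highest among the mitochondrial genes at 1.98, and the mitochondrial bars are wider because these genes have fewer counts.

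The highest ratio of all measured members was that of a mitochondrial large-subunit gene. Mrpl16, a protein of the core of the large subunit with a bacterial counterpart, had 158 treated and 46 control counts, or 40.9 and 20.6 CPM. Its ratio was 1.98 (1.42 to 2.81), the nearest to 2-fold of any measured member. Mrpl4, whose bacterial counterpart reaches into the exit tunnel, had 157 and 50 counts and a ratio of 1.81 (1.31 to 2.54). Mrpl18 had 512 and 173 counts, or 132 and 77.6 CPM, and a ratio of 1.71 (1.43 to 2.04).

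The most abundant mitochondrial genes differed less. Mrpl12, the protein of the mitochondrial stalk, had 1144 and 656 counts, or 296.0 and 294 CPM, a ratio of 1.01 (0.913 to 1.11). Mrpl52 had 313 and 291 CPM, a ratio of 1.08 (0.977 to 1.19). Both intervals include 1.

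On the lower side stood 8 of the 49 large-subunit genes. Mrpl44, which carries a fold of the RNase III family, had 65 and 63 counts, or 16.8 and 28.3 CPM, and was 1.68-fold lower (1.17 to 2.41). It was the 1 mitochondrial gene at least 1.5-fold lower. Mrpl40 and Mrpl15 had ratios of 0.817 (0.664 to 1.01) and 0.833 (0.683 to 1.02), whose intervals include 1.

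The mitochondrial small subunit showed the same side with fewer extremes. Mrps34, needed for the stability of the small subunit, had 251 and 82 counts, or 64.9 and 36.8 CPM, a ratio of 1.76 (1.37 to 2.29). Mrps26 and Mrps17 had ratios of 1.53 (1.19 to 1.98) and 1.51 (1.23 to 1.87). Mrps14, the most abundant small-subunit gene besides Mrps33, had 304 and 227 CPM and a ratio of 1.34 (1.21 to 1.49).

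Of the 28 measured small-subunit genes, 5 lay below 0. Mrps33 had 934 and 667 counts, or 242 and 299 CPM, and was 1.24-fold lower (1.12 to 1.37). Mrps22 and Mrps35 had ratios of 0.815 (0.583 to 1.14) and 0.909 (0.734 to 1.13), which include 1. Mrps2 was the 1 mitochondrial gene under the minimum level, with 39 and 21 counts.

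Mitochondrial ribosomal proteins with a counterpart in bacteria were compared with those that arose in mitochondria, by their number in the common naming. The median log2 ratio was 0.27 over 43 conserved and 0.32 over 34 mitochondria-specific genes, a difference of 0.05 in size. All 15 measured conserved small-subunit genes lay above 0, against 8 of 13 mitochondria-specific ones. Of the 15, Mrps5 lay at equality, with a log2 ratio of 0.0008 and a ratio of 1.00 (0.736 to 1.37). The intervals of several others include 1 as well. In the large subunit 23 of 28 conserved (median 0.23) and 18 of 21 mitochondria-specific genes (median 0.39) lay above 0, so the subunits did not share an order by origin. Above 0 were 52.5% of all measured genes. These groups follow names only. By structure Mrps18a (log2 ratio 0.27) and Mrps30 (0.39) belong to the large subunit. Mrps36 (0.21) is not counted as a ribosomal protein by structure. Of 5 subunits outside the name pattern 4 lay above 0, with a median of 0.31. Chchd1, a small-subunit protein, had 1473 and 555 counts and a ratio of 1.53 (1.39 to 1.69), while Ptcd3, which has RNA-binding repeats, had 0.957 (0.673 to 1.37).

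Level and gene length were set beside the ratios, since both differ between the 2 ribosomes. Per kilobase of merged exons, the median level was 1936 CPM for cytosolic and 37.1 CPM for mitochondrial genes. Other genes within the CPM range of the cytosolic members had a median log2 ratio of -0.00 (2650 genes), and those within the range of the mitochondrial members 0.03 (6545 genes). These ranges share only their limits with the members: the median level was 117 CPM for the former genes and 1714 CPM for the cytosolic members, so the part of level was not tested.

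Shorter genes had higher ratios in these libraries. Across 8650 genes that are no members, Spearman's rho between the log2 ratio and exon length was -0.24, where genes are not independent. Median exon lengths were 975 bases for cytosolic and 1363 bases for mitochondrial members, against 3240 for all measured genes. Other genes of 1000 to 1500 bases had a median log2 ratio of 0.16 (787 genes). In that length class the 24 cytosolic members had a median of -0.23 and the 23 mitochondrial members 0.33. Below 750 bases the medians were 0.20 for 184 other genes, -0.25 for 22 cytosolic and 0.08 for 10 mitochondrial members. The cytosolic members thus lay further below genes of their own length than below all genes. The mitochondrial members lay closer to genes of their length than to all genes between 1000 and 1500 bases, and below them in the shortest class. The part that length had in the mitochondrial values was not tested.

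**Figure D4:**
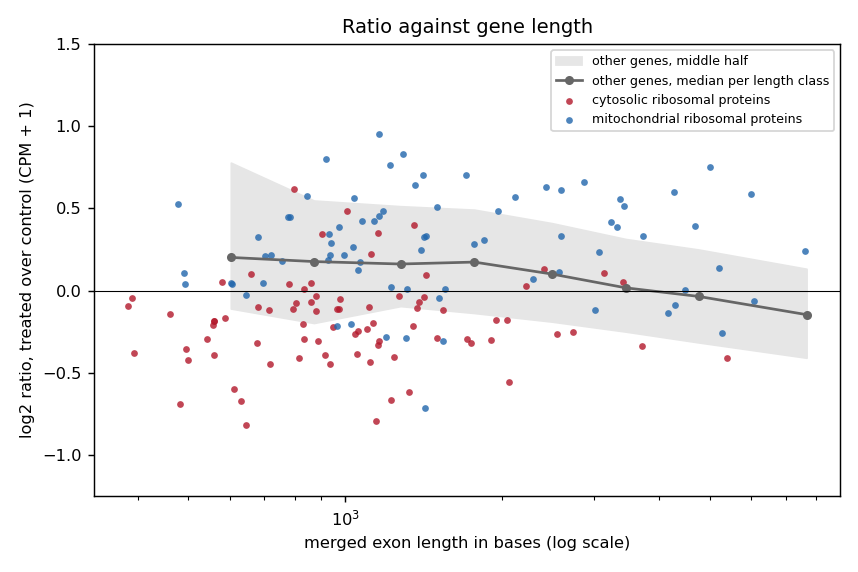
Log2 ratio of treated over control CPM (vertical) against merged exon length in bases (horizontal, log scale), with cytosolic members in red, mitochondrial members in blue, and the median and interquartile range of other measured genes per length class in grey. The grey line falls from 0.20 in the shortest class to -0.15 in the longest, the red points lie mostly under it, and the blue points mostly above it except in the shortest class.

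Messages of cytosolic ribosomal proteins are known for a run of pyrimidines at their first base, the terminal oligopyrimidine (TOP) tract, through which mTORC1 and Larp1 control their translation and stability. RefSeq promoter windows of build GRCm38.p6 were found for 133 of the 163 members. A tract was taken as a C followed by at least 5 letters C or T, so 6 in all, on the sense strand, between 10 bases before and 20 bases after the annotated start. It was found in 34 of 64 cytosolic windows (53.1%), in 17 of 69 mitochondrial windows (24.6%) and in 22.0% of all 27025 windows. Measured cytosolic genes with the tract had a median log2 ratio of -0.22 (33 genes) and those without -0.17 (28 genes). For mitochondrial genes the medians were 0.23 (17 genes) and 0.33 (51 genes).

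The windows of 8 genes are given below, 30 bases on each side of the annotated start, with any tract in capitals. Rps12 and Rps10 were among the lowest cytosolic genes, Rps10, named after its values were seen, being 1.58-fold lower (1.48 to 1.70), Rps6 lay near 1, and Rpl14 and Rplp0 were among the highest. Mrpl16, Mrpl44 and Mrps33 are the mitochondrial genes at the ends of the range.
Rps12 (chr10:23787180-23787239, minus strand): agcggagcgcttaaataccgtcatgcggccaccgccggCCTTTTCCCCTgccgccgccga
Rps10 (chr17:27635215-27635274, minus strand): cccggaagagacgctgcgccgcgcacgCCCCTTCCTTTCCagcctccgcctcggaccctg
Rps6 (chr4:86857338-86857397, minus strand): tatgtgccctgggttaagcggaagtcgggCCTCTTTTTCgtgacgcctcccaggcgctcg
Rpl14 (chr9:120571487-120571546, plus strand): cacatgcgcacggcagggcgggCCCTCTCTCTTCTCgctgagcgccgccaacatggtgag
Rplp0 (chr5:115559437-115559496, plus strand): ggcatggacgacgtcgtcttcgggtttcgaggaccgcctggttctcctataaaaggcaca
Mrpl16 (chr19:11770385-11770444, plus strand): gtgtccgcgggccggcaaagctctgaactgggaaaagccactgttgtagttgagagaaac
Mrpl44 (chr1:79775988-79776047, plus strand): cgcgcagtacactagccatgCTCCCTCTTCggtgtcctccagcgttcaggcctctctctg
Mrps33 (chr6:39810907-39810966, minus strand): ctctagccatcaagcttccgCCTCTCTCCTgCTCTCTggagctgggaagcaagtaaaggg
Rps12, Rps10, Rps6 and Rpl14 share the tract although their ratios run from 0.568 to 1.40. Rplp0 has none in this window, which does not show that its message lacks one. The tract of Rps12 begins at base 9, counting the annotated first base as 1. For any gene, the annotated base need not be the start used in these tumours. Genes without a tract in the window may still carry one, so the medians with and without it compare windows and not messages.

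Other short promoter words were more frequent in both ribosomes than over all promoters. In windows of 300 bases, searched on both strands, the ETS-type word CCGGAAG was in 39.1% of cytosolic, 36.2% of mitochondrial and 9.12% of all promoters. The YY1-type word AAGATGGC was in 9.38%, 17.4% and 2.88%. All promoters include those of genes that were not measured, whereas nearly all member windows belong to measured genes. Of all measured genes, 1425 had the ETS-type word and 5550 lacked it, so the excess is smaller beside measured genes. For the YY1-type word these numbers were 377 and 6598. Of measured cytosolic members, 24 had the ETS-type word and 37 lacked it, and 6 had the YY1-type word and 55 lacked it. Mitochondrial genes with the YY1-type word had a median log2 ratio of 0.32 (12 genes) and those without 0.24 (56 genes), and for the ETS-type word the medians were 0.27 (25 genes) and 0.33 (43 genes). A word in a window is a description and does not show that a factor binds there.

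Other messages with a known TOP tract lay on the side of the cytosolic ribosomal proteins. Of 18 such genes, 14 had log2 ratios below 0, beside 47.5% of all measured genes, with a median of -0.16. Hnrnpa1, an RNA-binding protein of splicing, had 471 and 757 CPM and was 1.61-fold lower (1.50 to 1.72). Tpt1, a small growth-related protein, had 17623 and 13949 counts and was 1.37-fold lower (1.34 to 1.40). Eef1a1, which brings aminoacyl transfer RNA to the ribosome, had 3972 and 5885 CPM and was 1.48-fold lower (1.45 to 1.52).

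Eef1g, a subunit of the exchange factor of Eef1a1, went the other way at 542 and 338 CPM, a ratio of 1.60 (1.47 to 1.74). The TOP list includes Rack1, a ribosomal subunit, and overlaps the lists that follow. Eef1a1, Eef1b2, Eef1d, Eef1g and Eef2 belong to the elongation list as well. Pabpc1, Eif3e, Eif3f, Eif3h and Eif4b belong to the initiation list, and Npm1 to the assembly list.

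Elongation and initiation factors had no common side. Of 10 measured elongation and termination factors 4 were above 0, beside 52.5% of all measured genes, with a median of -0.07. Eif5a, which relieves stalled ribosomes, had 2790 and 791 counts, or 722 and 355 CPM, and was 2.03-fold higher (1.88 to 2.20), the 1 gene of the list past 2-fold. Of 39 initiation factors 25 were above 0, with a median of 0.07. Eif5b, which joins the subunits, had a ratio of 1.68 (1.47 to 1.93), while the helicase Eif4a2 was 1.34-fold lower (1.21 to 1.48) and Pabpc1, the poly(A)-binding protein, 1.28-fold lower (1.23 to 1.34).

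Factors that assemble the cytosolic ribosome lay on the other side from its proteins. Of 37 measured assembly and ribosomal RNA synthesis genes, of 38 listed, 30 had log2 ratios above 0, beside 52.5% of all measured genes. Their median was 0.45. Of these 14 were at least 1.5-fold higher, beside 12.8% of all measured genes, and none was 1.5-fold lower, beside 9.02%. Nolc1, a nucleolar chaperone of small nucleolar particles, had 254 and 65 counts, or 65.7 and 29.2 CPM, and was 2.25-fold higher (1.71 to 3.01). Nop58 and Nop56, core proteins of those particles, had ratios of 1.66 (1.48 to 1.87) and 1.64 (1.38 to 1.95). Ncl (nucleolin) had 1047 and 664 CPM, a ratio of 1.58 (1.48 to 1.67).

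Other assembly genes did not share this. Npm1, the most abundant of the list with 10239 and 5981 counts, had a ratio of 0.987 (0.956 to 1.02), and Rrn3, an initiation factor of RNA polymerase I, had 35 and 27 counts and a ratio of 0.747 (0.440 to 1.28). Nop56, Nop58 and Ncl were named after their values were seen. Of every 100 counts on cytosolic ribosomal proteins and these assembly genes together, the assembly genes had 3.66 treated (3.62 to 3.71) and 2.60 control counts (2.55 to 2.65).

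Genes around the mitochondrial ribosome had medians closer to 0 than its proteins, but few were measured. The 9 measured mitochondrial translation factors, of 13 listed, had a median of 0.11 with 7 above 0, beside 52.5% of all measured genes. Tsfm, an elongation factor, had 165 and 57 counts and a ratio of 1.67 (1.23 to 2.30), and Slirp, which stabilises mitochondrial messages, was 1.24-fold lower (1.09 to 1.42). The 12 measured assembly factors, of 21 with a row, had a median of 0.06 with 6 above 0. That median was 0.16 with no minimum level, 0.17 with totals that leave out the most abundant classes, and 0.27 with a minimum of 50 CPM, which 1 gene passed. Rbfa, which helps to mature the small subunit, had 108 and 31 counts and a ratio of 2.01 (1.34 to 3.10).

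The messages that the mitochondrial ribosome translates lay on both sides of 0. Of 13 mitochondrially encoded messages 7 were above 0, near the 52.5% of all measured genes, with a median of 0.06. The most abundant, mt-Co3, had 61070 and 40620 counts and was 1.15-fold lower (1.14 to 1.17), and mt-Atp6 was 1.22-fold lower (1.20 to 1.24). The messenger mt-Nd4l had 452 and 242 CPM, a ratio of 1.87 (1.69 to 2.06).

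Of 18 listed regulators of mTORC1 and growth, 13 were measured. Their median was 0.13 with 10 above 0, beside 52.5% of all measured genes. The highest was Mlx at 1.51 (1.09 to 2.12), and the lowest Larp4, an RNA-binding protein, which was 1.36-fold lower (1.12 to 1.64). No gene of this list was 1.5-fold higher or lower on the log2 scale with the added 1. Mtor and Tsc1 stood among the rows that are not on the count scale and were not analysed here.

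**Figure D5:**
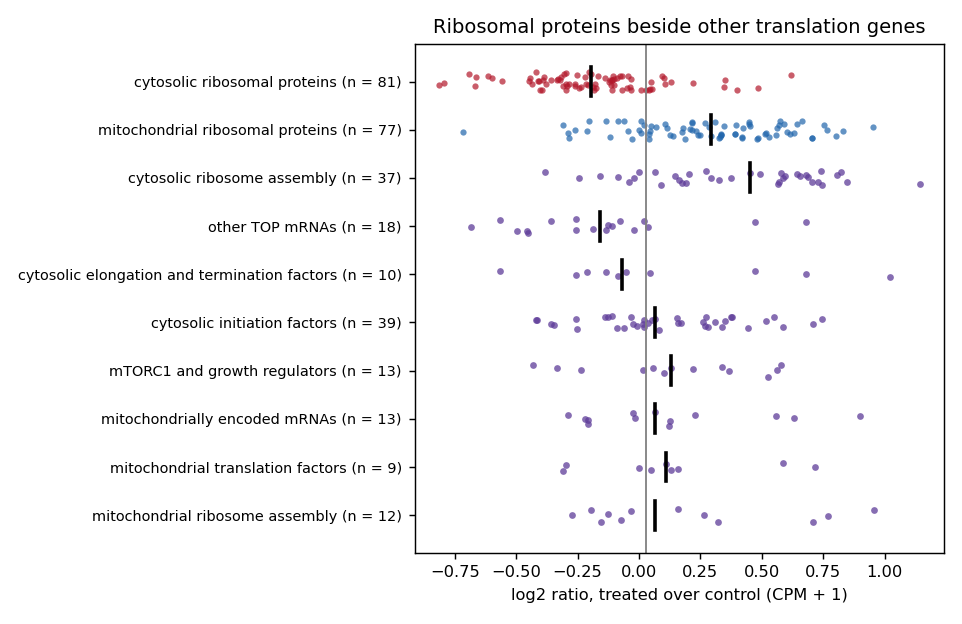
Log2 ratio of treated over control CPM (horizontal) for each measured gene of the 2 ribosomes and of 8 lists of related genes, 1 point per gene, with black bars for medians and a grey line for the median of all measured genes. Assembly factors of the cytosolic ribosome (median 0.45) lie to the right of the line while its proteins (median -0.19) and other TOP messages (median -0.16) lie to the left. Some genes stand in several lists.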

How the data were processed

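Bulk RNA libraries of 1 treated and 1 control tumour were each made from 1.5 µg of RNA with an AccuraCode kit, per the labels' protocols, and reads were aligned to mm10, per the submitters' processing notes. The counter, the strand setting and the handling of molecular identifiers and shared reads were not given in the sources used here. Deposited by the authors are counts per gene in 34290 rows. The top 31 rows, on another scale, were left out. None is a member. A further 7 columns were not used, since no label ties them to a sample.

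Library scaling used TMM, a trimmed mean of M values (30% and 5% trimmed), with factors of 1.01 and 0.989, with Python 3.11.15, numpy 2.4.6, pandas 2.3.3 and scipy 1.17.1. Ratios of single genes carry no pseudocount, and log2 ratios carry a pseudocount of 1. Intervals of shares are Clopper-Pearson and those of ratios conditional binomial, both at 95%. A count of 0 was given an upper limit of 3 counts. The code was tested on simulated data. Exon lengths come from GENCODE M21 (mm10) and promoters from RefSeq (GRCm38.p6). Exons of 19 of the 81 measured cytosolic and 30 of the 77 measured mitochondrial genes overlap a gene on the opposite strand, whose reads cannot be told apart without strand.

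Members and lists were chosen with earlier results of these data known. Named genes are, per subunit group, the 3 highest, the 3 lowest and the 2 most abundant, any member past 2-fold, paralogs, a few listed subunits, and the highest, lowest and most abundant gene of each related list. Other scalings, pseudocounts, minimum levels, the second sheet, means and structural membership were tried. Some genes that this rule names are not reported here.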

Additional observations from a re-analysis of the deposited data

How the results depend on the processing

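No paired analysis was possible because each group has 1 library, and no library could be left out. Over all 11 alternatives run on them (4 changes of scaling or sheet, 2 pseudocounts, 3 minimum levels, the mean of members, and membership by structure), the cytosolic median stayed between -0.22 and -0.16, the mitochondrial median between 0.23 and 0.32 and their difference between 0.43 and 0.50. The large-minus-small difference of the cytosolic ribosome, -0.03, was 0.072 with the mean of members, and that of the mitochondrial ribosome, -0.02, was 0.028, so neither direction is stable. With the 31 rows of the other scale kept in the totals, the cytosolic share was 16.1% (treated) and 17.6% (control) and the mitochondrial share 0.661% and 0.525%. The count of members past 2-fold was 0 in every alternative but the 1.5-fold threshold, where 1 cytosolic gene was higher and 7 lower, and 13 mitochondrial genes were higher and 1 lower. The median of the paralog list, -0.09, was 0.079 with a minimum of 1 CPM and with no minimum. That of the mitochondrial translation factors, 0.11, was -0.31 with a minimum of 50 CPM, which 1 gene, Slirp, passed. The scalings moved the median of all genes by 0.0304 at most. For 72 named genes under 6 settings, 423 of the values stayed within their counting interval, 9 left it and no ratio whose interval excludes 1 changed side. Precision is limited most for mitochondrial genes, with as few as 34 control counts.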

Other observations

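The non-coding hosts of small nucleolar RNAs, whose transcripts are also known to start with a TOP tract, were listed with the results above known. Of 10 such genes, all measured, 8 had log2 ratios below 0, beside 47.5% of all measured genes, with a median of -0.28. At 1.5-fold 3 were lower and 1 was higher, beside 9.02% and 12.8% of all measured genes. Zfas1 had 1325 treated and 1329 control counts, or 343 and 596 CPM, and was 1.74-fold lower (1.61 to 1.88). Gas5 had 843 and 1080 CPM and was 1.28-fold lower (1.21 to 1.35). Snhg15 lay on the other side with 141 and 50 counts, a ratio of 1.63 (1.17 to 2.29). These values have no replicate check.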
